A study of Drosophila melanogaster with 6 samples.

Results

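Iron storage, transport and regulation in the fly larva were followed through 10 genes, chosen by name from the 14869 genes of the count table. They were the ferritin subunits Fer1HCH, Fer2LCH and Fer3HCH, the transferrins Tsf1, Tsf2 and Tsf3, the metal transporters Mvl and mfrn, and the iron regulatory proteins IRP-1A and IRP-1B. All 10 were found in the table, 8 by their symbol and the IRP pair through a synonym. Iron enters a cell as a free divalent metal or bound to a carrier protein. It is used in mitochondria for heme and iron-sulfur clusters, and the surplus is kept inside ferritin shells. Insect ferritin, unlike the vertebrate protein, passes through the secretory pathway and is also found in the hemolymph. The larval fat body, which combines roles of liver and adipose tissue, releases blood proteins, among them the iron carrier Tsf1.

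The libraries come from a study that maps chromatin proteins with Dam, a DNA adenine methyltransferase fused to such a protein. Polyadenylated RNA was sequenced from 3 groups of Drosophila melanogaster samples with 2 biological replicates each. The first group was central brain without the ventral nerve cord, with 30 larvae in a library. The second was fat body after rearing on medium containing 4-hydroxytamoxifen (4-HT) at 25 µM, and the third, the control, was fat body after rearing on the same medium without the drug, each with 18 larvae in a library. All animals were male wandering larvae of the third instar kept at 25 °C. Every library pooled 6 transgenic lines in equal parts, 5 larvae of each line for brains and 3 for fat bodies. All 6 lines were y,w and carried at ZH51C a transgene written FL.hsp70P-Dam[4-HT-intein@L127C], either as Dam alone or joined to PC, H1, HP1, MRG15 or BRM. The hsp70 promoter, Dam and the 4-HT intein were thus present in the control groups too, although the titles call them wt, and effects of single lines cannot be separated. The p-values below measure the spread between such pooled samples.

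Libraries held between 20687696 and 65802288 counts. In the brain, the fat body markers summed to 0.0181% and 0.0304% of their mean in control fat body. Of 7 neuron markers, 6 (elav, nSyb, brp, fne, Appl and futsch) stood in brain at 63.0 CPM or more each and in the 4 fat body libraries at 3.16 CPM or less (CPM, the unit of level used here, is a gene's counts scaled to a common library size). The other one, Syt1, stood at 80.5 and 109 CPM in brain and at 549 to 687 CPM in fat body. Replicate 1 of brain and of control fat body held more salivary gland transcripts than replicate 2. The 12 salivary gland markers summed to 111 and 43.1 CPM in brain, 3.75 and 3.83 CPM in 4-HT fat body, and 2004 and 3.88 CPM in control fat body. In brain, fkh alone made up 40.3 and 41.1 CPM of the sum, and the glue gene Sgs3 had 1217 and 8 counts, against 6377 and 11 counts in control fat body. In control fat body replicate 1 the 8 hemocyte markers also summed to 187 CPM, while they reached 38.9 and 63.0 CPM in 4-HT fat body and 45.8 CPM in control replicate 2. The calls on the 10 genes in brain against control fat body were recomputed without each of these libraries and, chosen after seeing the data, without both. The 2 replicates differed by more than 2-fold for 5.53% of genes in brain, 12.7% in 4-HT fat body and 15.8% in control fat body.

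A few serum protein genes fill much of a fat body library, so the level of every other gene there depends on how libraries are scaled to each other. CPM values here use library sizes scaled by TMM, which assumes that most genes do not differ. Over all tested genes, the median of the log2 fold changes (brain over control fat body) was then 0.11. It was 0.44 with upper quartile scaling, 1.36 when the 5 most abundant genes of each library were left out of its size, and 2.49 with the library size alone. Ratios between genes of 1 library and changes relative to that median do not depend on the choice, and both are given below. In whole tissue, fewer cells of a type and less RNA per cell cannot be told apart.

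**Figure D1:**
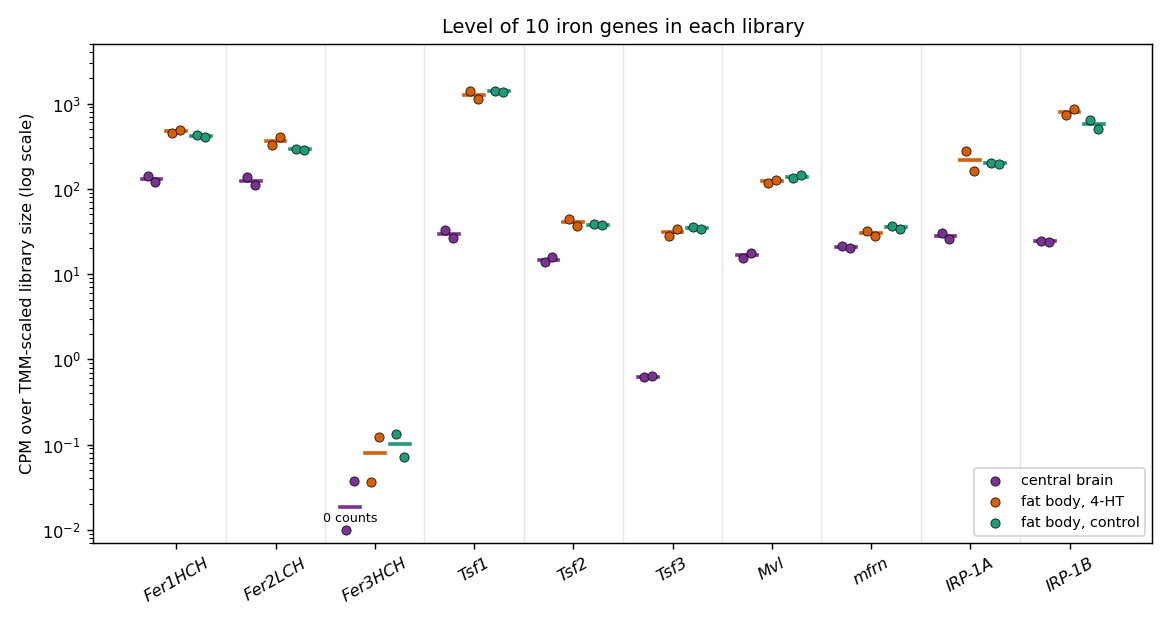
Level of each of the 10 iron genes in each of the 6 libraries, in CPM over TMM-scaled library sizes on a log axis. Points are libraries and bars are means of the 2 replicates. Tsf1 stands at 32.9 and 26.4 CPM in brain and at 1117 CPM or more in all 4 fat body libraries, and Fer3HCH lies at or near 0 counts throughout (the library with 0 counts is drawn at the lower edge).

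The ferritin subunits encode the shell that stores iron: Fer1HCH is the heavy chain homolog, which carries the ferroxidase activity, and Fer2LCH the light chain homolog. Fer1HCH had 142 and 119 CPM in brain, 446 and 496 CPM in 4-HT fat body, and 430 and 405 CPM in control fat body. Both brain libraries lay below all fat body libraries. The fitted log2 fold change of Fer1HCH, brain minus control fat body, was -1.68 (SE 0.20), with an adjusted p of 0.000329 (edgeR's quasi-likelihood test with Benjamini-Hochberg adjustment over 10029 genes, as for all adjusted p-values below unless another tool is named). Fer2LCH had 136 and 112 CPM in brain, 324 and 406 CPM in 4-HT fat body, and 296 and 287 CPM in control fat body. Its log2 fold change in brain was -1.23 (SE 0.21, adjusted p = 0.00196). Fer1HCH in brain reached 33.9% and 28.6% of its control fat body mean, and Fer2LCH reached 46.7% and 38.4%.

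The balance of the ferritin chains differed between the tissues. Fer2LCH over Fer1HCH, as a ratio of counts within a library, was 0.960 and 0.937 in brain, 0.726 and 0.819 in 4-HT fat body, and 0.688 and 0.707 in control fat body. The brain libraries thus held nearly equal counts of the chains, and none of the 3 groups overlapped with another. Corrected for coding length, the ratio was 0.997 and 0.972 in brain, against 0.714 and 0.734 in control fat body. Corrected for the length of all exons, it was 1.38 and 1.35 in brain, against 0.992 and 1.02 in control fat body. The ratio was thus higher in brain on each basis, but which tissue held the chains in nearly equal parts depended on the length used. With 2 libraries a side, an exact permutation test cannot go below p = 0.333, so none is given for ratios. The genes are neighbours on chromosome 3R on opposite strands, and 118 exon bases belong to both, which is 4.97% of the Fer1HCH exons and 7.16% of the Fer2LCH exons. The library kit does not mark the strand, so reads from the shared stretch cannot be assigned to either gene.

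Fer3HCH encodes the mitochondrial ferritin. It had 0 and 3 counts in brain, 1 and 5 in 4-HT fat body, and 2 and 2 in control fat body. It fell under the minimum for testing, and at these counts no difference was detectable. The library with 0 counts allows up to 3 counts, or 0.145 CPM of the unscaled library size, which covers counting error only. Fer3HCH is known for its expression in testis. A list of 24 testis and germline markers summed to 38.0 and 42.6 CPM in brain, 17.3 and 12.0 CPM in 4-HT fat body, and 30.6 and 18.8 CPM in control fat body. In brain, eya made up 21.45 and 20.57 CPM of the sum, and tj made up 5.05 and 5.83 CPM. Of these markers 12 and 10 were at 0 in the brain libraries, 10 and 4 in 4-HT fat body, and 2 and 5 in control fat body.

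Among the transferrins, Tsf1 and Tsf3 had the widest tissue contrasts of the 9 tested genes. Tsf1 is a secreted iron carrier of the hemolymph. It had 32.9 and 26.4 CPM in brain, 1408 and 1117 CPM in 4-HT fat body, and 1399 and 1375 CPM in control fat body. Ranked by counts within a library, it was gene 2303 and 2704 in brain, 87 and 139 in 4-HT fat body, and 89 and 93 in control fat body. Its log2 fold change in brain was -5.55 (SE 0.27, adjusted p = 8.58e-06). The brain level was 2.37% and 1.90% of that in control fat body, beside 0.0181% and 0.0304% for the summed fat body markers in the same libraries. The source of the Tsf1 reads in brain was not tested.

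Tsf3, another member of the family, had 0.621 and 0.631 CPM in brain, from 37 and 51 counts, with 28.0 and 33.4 CPM in 4-HT fat body and 35.2 and 33.7 CPM in control fat body. Its log2 fold change in brain was -5.78 (SE 0.19, adjusted p = 4.00e-06), and it ranked 8056 and 8273 in the brain libraries. The brain level was 1.80% and 1.83% of that in control fat body. Of its exon bases, 169 (7.11%) are shared with CG15706 on the opposite strand, which had 6.14 and 5.41 CPM in brain, 41.05 and 32.2 CPM in 4-HT fat body, and 51.1 and 33.2 CPM in control fat body. The part of those reads in the Tsf3 counts was not tested.

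Tsf2, which is needed for septate junctions between epithelial cells, behaved differently from its relatives. It had 13.9 and 15.7 CPM in brain, 44.8 and 36.3 CPM in 4-HT fat body, and 38.3 and 37.7 CPM in control fat body. Its log2 fold change in brain was -1.36 (SE 0.17, adjusted p = 0.000456). Within libraries, Tsf1 counts were 2.37 and 1.68 times those of Tsf2 in brain, 31.4 and 30.8 times in 4-HT fat body, and 36.5 and 36.5 times in control fat body. Tsf3 over Tsf2 was 0.0447 and 0.0402 in brain, 0.626 and 0.922 in 4-HT fat body, and 0.919 and 0.894 in control fat body. Tsf1 over Tsf3, by contrast, was 53.0 and 41.8 in brain, 50.2 and 33.4 in 4-HT fat body, and 39.7 and 40.8 in control fat body, so the groups overlapped. The tissues thus differed in Tsf1 and Tsf3 by similar factors and in Tsf2 by a smaller one.

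The transporters differed from each other. Mvl is the fly homolog of the NRAMP family, which moves divalent metals such as manganese and iron across membranes. It had 15.6 and 17.8 CPM in brain, 118 and 129 CPM in 4-HT fat body, and 132 and 146 CPM in control fat body. The log2 fold change of Mvl in brain was -3.06 (SE 0.19, adjusted p = 2.02e-05). The gene mfrn encodes mitoferrin, the carrier that brings iron into mitochondria. It had 21.3 and 20.1 CPM in brain, 32.1 and 28.1 CPM in 4-HT fat body, and 36.7 and 34.2 CPM in control fat body. Its log2 fold change in brain of -0.78 (SE 0.15, adjusted p = 0.00338) was the smallest among the 9 tested genes. In the authors' deposited table, mfrn had a log2 fold change of -0.73 with an adjusted p of 0.0950, while the other 8 tested genes had adjusted p-values of at most 0.00114.

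Measured against ferritin in the same library, mfrn stood higher in brain. Its counts were 0.150 and 0.168 of those of Fer1HCH in brain, 0.0720 and 0.0567 in 4-HT fat body, and 0.0853 and 0.0844 in control fat body. Tsf1 went the other way, with 0.233 and 0.221 Tsf1 counts for each Fer1HCH count in brain, 3.16 and 2.25 in 4-HT fat body, and 3.25 and 3.39 in control fat body. Mvl over Fer1HCH was 0.110 and 0.149 in brain, 0.265 and 0.259 in 4-HT fat body, and 0.308 and 0.360 in control fat body. For Tsf2 over Fer1HCH the values were 0.0981 and 0.132 in brain, 0.1004 and 0.0732 in 4-HT fat body, and 0.0892 and 0.0930 in control fat body, close in both tissues.

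IRP-1A and IRP-1B are paralogs of the cytosolic aconitase family. IRP-1A binds iron-responsive elements, RNA hairpins found in messages such as those of Fer1HCH and SdhB, when iron is scarce, whereas IRP-1B is known for its aconitase activity. IRP-1A had 30.5 and 25.9 CPM in brain, 278 and 162 CPM in 4-HT fat body, and 202 and 196 CPM in control fat body. Its log2 fold change in brain was -2.82 (SE 0.30, adjusted p = 0.000218). IRP-1B had 24.7 and 23.8 CPM in brain, 734 and 862 CPM in 4-HT fat body, and 650 and 505 CPM in control fat body. The log2 fold change of IRP-1B in brain was -4.57 (SE 0.24, adjusted p = 1.22e-05), and its brain level was 4.28% and 4.13% of that in control fat body.

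The paralog that led was not the same in the tissues. IRP-1B over IRP-1A was 0.811 and 0.920 in brain, 2.64 and 5.33 in 4-HT fat body, and 3.23 and 2.58 in control fat body. IRP-1A was thus slightly ahead in both brain libraries, and IRP-1B led in all 4 fat body libraries. The coding lengths, 2706 bases for IRP-1A and 2697 bases for IRP-1B, are nearly equal. By rank within a library, IRP-1B was gene 2879 and 2925 in brain, 213 and 192 in 4-HT fat body, and 226 and 313 in control fat body. How reads that fit both paralogs were counted is not given in the sources used here. The split between them carries that uncertainty. IRP-1A also shares 169 exon bases (5.86%) with an antisense RNA gene, asRNA:CR45648, that is not among the genes of the count table.

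**Figure D2:**
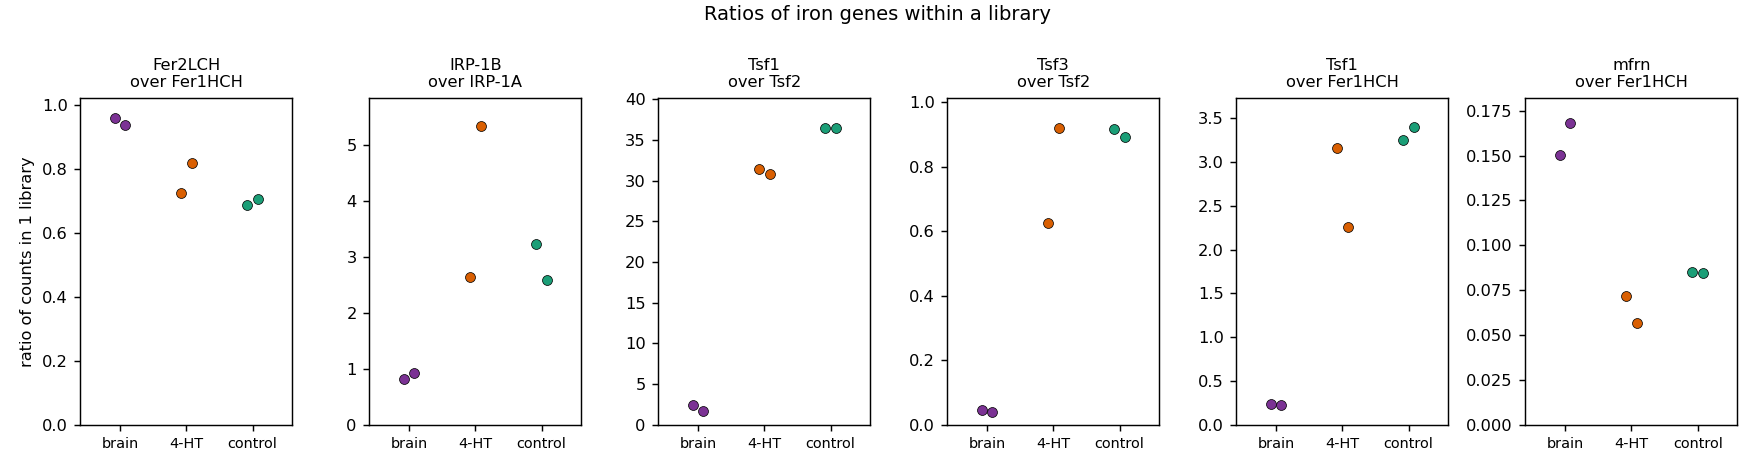
Ratios of read counts between iron genes of the same library, 6 pairs, for brain, 4-HT fat body and control fat body. Each point is 1 library, each panel has its own axis starting at 0, and no value depends on the scaling between libraries. IRP-1B over IRP-1A lies below 1 in both brain libraries and at 2.58 or above in the fat body libraries.

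Between genes, levels were compared as CPM per kilobase of coding length. In brain, Fer1HCH (193 and 162) and Fer2LCH (192 and 158) came first and overlapped. They were followed by mfrn (18.7 and 17.6), Tsf1 (17.1 and 13.7) and IRP-1A (11.3 and 9.57). IRP-1B (9.16 and 8.84) and Mvl (8.14 and 9.27) overlapped, Tsf2 was at 5.65 and 6.39, and Tsf3 was at 0.290 and 0.295. The brain profile was thus headed by the ferritins, far above every other gene of the group.

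In control fat body the order on the same scale was Tsf1 (727 and 715), Fer1HCH (585 and 551), Fer2LCH (418 and 405) and IRP-1B (241 and 187). IRP-1A (74.5 and 72.3) overlapped with Mvl (69.0 and 76.0), and mfrn (32.3 and 30.1), Tsf3 (16.5 and 15.7) and Tsf2 (15.6 and 15.3) followed. In 4-HT fat body, Tsf1 (732 and 581) overlapped with Fer1HCH (606 and 674), and in replicate 2 it stood below it. Fer2LCH (457 and 573) and IRP-1B (272 and 320) came next. IRP-1A (103 and 59.7) overlapped there with Mvl (61.5 and 67.0), mfrn was at 28.2 and 24.7, and Tsf2 (18.2 and 14.8) overlapped with Tsf3 (13.1 and 15.6). The order depended on the length used, in brain and in fat body. Per kilobase of all exons, Fer2LCH in brain (82.5 and 67.9) stood above Fer1HCH (59.6 and 50.3), and Tsf1 (11.5 and 9.24) above mfrn (6.998 and 6.60). On that scale IRP-1B in control fat body (224 and 174) stood above Fer1HCH (181 and 171) in each library. In 4-HT fat body IRP-1B (253 and 297) also stood above Fer1HCH (188 and 209), and Tsf1 (493 and 391) stood above both.

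Of the 10 genes, 9 could be tested in brain against control fat body, and all 9 were called lower in brain with TMM scaling, with a median log2 fold change of -2.82. Over all 10029 genes, 70.0% were called, 35.5% higher and 34.5% lower, and the brain and control fat body libraries did not overlap for 86.5%. The 9 genes stayed called lower with upper quartile scaling, with DESeq2, and without replicate 1 of brain or of control fat body. Without both of these, 8 stayed called lower, and mfrn had a log2 fold change of -0.76 with an adjusted p of 0.0755. With the library size alone, which called 75.5% of all genes higher and 11.8% lower, 4 of the 9 were called lower and 4 higher. Under that scaling Tsf3 (-3.39), Tsf1 (-3.17), IRP-1B (-2.19) and Mvl (-0.67) remained lower in brain on the log2 scale, and mfrn (1.60), Fer2LCH (1.15), Tsf2 (1.03) and Fer1HCH (0.70) were higher. IRP-1A did not pass there (-0.43, adjusted p = 0.142). With the 5 most abundant genes left out of the library size, 5 genes were called lower, mfrn was called higher (0.48, adjusted p = 0.0226), and Fer1HCH (-0.43, adjusted p = 0.0684), Fer2LCH (0.02, adjusted p = 0.935) and Tsf2 (-0.10, adjusted p = 0.591) did not pass.

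Set against that all-gene median, the 9 genes were lower in brain. A scaling shifts a gene and the median alike, so nearly the same values under the 4 scalings follow by construction. With TMM these relative log2 differences were -5.88 for Tsf3, -5.66 for Tsf1, -4.68 for IRP-1B, -3.16 for Mvl, -2.92 for IRP-1A, -1.79 for Fer1HCH, -1.47 for Tsf2, -1.34 for Fer2LCH and -0.89 for mfrn. By the calls given above, the statement that Tsf1, Tsf3, IRP-1B and Mvl were lower in brain held for every scaling used. That on the ferritins, Tsf2 and mfrn held only relative to the other genes.

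**Figure D3:**
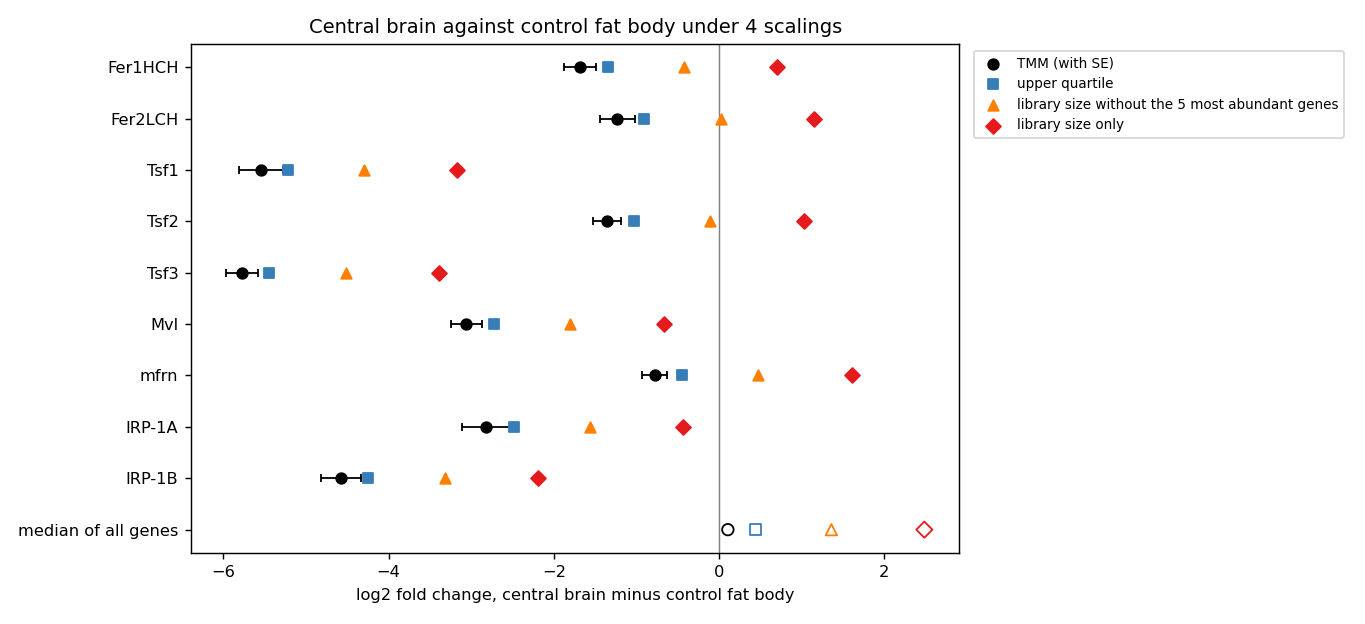
Log2 fold change of the 9 tested iron genes, central brain minus control fat body, under 4 scalings of the libraries. Bars on the TMM points are the standard error, and open symbols in the last line give the median of all tested genes. All points of 1 scaling shift together: with the library size only, mfrn, Fer2LCH, Tsf2 and Fer1HCH lie right of 0, and the median of all genes lies at 2.49.

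The machinery that uses iron was read from lists of related genes. Iron-sulfur cluster assembly, which builds cofactors for respiration and DNA metabolism, had 20 tested members of 22 listed. With TMM 18 of them were called lower in brain and none higher, at a median log2 fold change of -1.28, while of all genes 34.5% were called lower and 35.5% higher, at a median of 0.11. The count was 12 to 17 with any 1 library of brain or control fat body left out, and 11 without replicate 1 of both. Scaled by the library size alone it was 1 lower and 14 higher, a share near that of all genes (11.8% lower and 75.5% higher). The list median under that scaling was 1.095, below the 2.49 of all genes. The 3 widest changes were those of galla-1 (5.02 and 5.84 CPM in brain, 106 and 117 CPM in control fat body, log2 fold change -4.36, adjusted p = 3.58e-05), the cytosolic assembly factor Nubp2 (6.82 and 5.70 CPM in brain, 37.3 and 28.5 CPM in control fat body, -2.39) and dare, a ferredoxin reductase (3.93 and 4.13 CPM in brain, 16.4 and 18.7 CPM in control fat body, -2.12). With the library size alone galla-1 stayed lower (-1.97, adjusted p = 0.000304), Nubp2 was at -0.01 and dare at 0.27. Frataxin (fh), which delivers iron to the assembly complex, did not pass, with 4.37 and 3.53 CPM in brain and 3.10 and 2.12 CPM in control fat body (adjusted p = 0.112).

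For heme synthesis and breakdown, 8 of 10 listed genes were tested and 6 were called lower in brain, none higher, at a median of -1.40 (all genes 34.5% lower, 35.5% higher, median 0.11). Without replicate 1 of brain, of control fat body or of both it was 5. Scaled by the library size alone, 6 were called higher and none lower, and 75.5% of all genes were called higher there, nearly the same share. The list median, however, was 0.99 there, below the 2.49 of all genes. The heme oxygenase Ho, which breaks heme down and frees its iron, had 5.89 and 5.08 CPM in brain and 36.5 and 35.5 CPM in control fat body (log2 fold change -2.71, adjusted p = 1.65e-05). The synthesis enzyme Pbgs had the next widest change (-2.32, adjusted p = 0.00061). With the library size alone Ho was at -0.33 and Pbgs at 0.05. Urod had 18.9 and 17.5 CPM in brain and 18.4 and 17.0 CPM in control fat body, and it did not pass.

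Among other iron transport and redox genes, 5 of 8 listed were tested, with 4 called lower in brain and 1 higher, at a median of -1.72 (all genes 34.5% lower, 35.5% higher, median 0.11). It was 2 lower and 1 higher without brain replicate 1, without brain replicate 2, without control fat body replicate 1, and without replicate 1 of both. Scaled by the library size alone it was 1 lower and 3 higher, while of all genes 11.8% were lower and 75.5% higher. Medians there were 0.67 for the list and 2.49 for all genes. The gene called higher was CG8399, with 5.42 and 4.78 CPM in brain and 0.792 and 0.610 CPM in control fat body (log2 fold change 2.88, adjusted p = 0.00204). CG1275 had 10.53 and 9.23 CPM in brain and 77.9 and 79.8 CPM in control fat body (-3.00, adjusted p = 2.945e-05) and stayed lower with the library size alone (-0.61, adjusted p = 0.0108). Mco1, a multicopper oxidase, was near the limit of detection, with 1 and 5 counts in brain and 9 and 5 in control fat body, and its call (-3.06, adjusted p = 0.0264) was lost without any single brain library or without control fat body replicate 1 (adjusted p of 0.0638 to 0.172).

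Aconitases and succinate dehydrogenase hold iron-sulfur clusters themselves, and 5 of the 6 listed genes were tested. With TMM 1 was called higher in brain and 2 lower, at a median of -0.40, while of all genes 35.5% were called higher and 34.5% lower, so these few calls do not stand out. The count called lower was 1 without control fat body replicate 1, without control fat body replicate 2 and without replicate 1 of brain and control fat body together, and 0 without brain replicate 2. Scaling by the library size alone called all 5 higher and none lower, while 75.5% of all genes were called higher. Medians there were 1.985 for the list and 2.49 for all genes. SdhA, the flavoprotein subunit, was called higher in brain, with 66.3 and 56.8 CPM in brain, while control fat body had 31.9 and 16.2 CPM (log2 fold change 1.36, adjusted p = 0.0076). The fold change of SdhA on the log2 scale was 1.96 (adjusted p = 0.000318) without control fat body replicate 1 and 0.96 (adjusted p = 0.00902) without replicate 2. SdhB, the iron-sulfur subunit, was called lower with TMM, with 35.6 and 29.4 CPM in brain, while control fat body had 66.3 and 56.9 CPM (-0.92, adjusted p = 0.00415). The call on SdhB did not pass without brain replicate 2 (adjusted p = 0.0534), and with the library size alone SdhB was higher in brain (1.46). Within libraries SdhA over SdhB was 1.86 and 1.93 in brain, 0.367 and 0.360 in 4-HT fat body, and 0.481 and 0.285 in control fat body, which holds for any scaling. Mitochondrial aconitase (mAcon1) had 177 and 144 CPM in brain and 254 and 260 CPM in control fat body (-0.68, adjusted p = 0.0171). Its call was lost without brain replicate 2 (adjusted p = 0.14) and without either control fat body library (0.0738 and 0.0765), and its direction turned with the library size alone (1.70).

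Copper and zinc genes were read as a second set of metal genes. Of 15 listed, 11 were tested, and 7 were called lower in brain and none higher, at a median of -1.50 (all genes 34.5% lower, 35.5% higher, median 0.11). Without replicate 1 of brain, of control fat body or of both it was also 7. Scaling by the library size alone made it 3 lower and 6 higher, while of all genes 11.8% were lower and 75.5% higher. Medians there were 0.83 for the list and 2.49 for all genes. The copper importer Ctr1B had 3 and 2 counts in brain against 104 and 196 in control fat body, or 6.86 and 7.03 CPM there (log2 fold change -7.48, adjusted p = 8.58e-06). MtnD, a metallothionein, had 1 and 3 counts in brain and 20 and 31 in control fat body (-5.29, adjusted p = 0.000389). At so few counts the fitted size depends on the prior count of the fit. The copper pump ATP7 had 12.5 and 12.7 CPM in brain and 89.6 and 101 CPM in control fat body (-2.92, adjusted p = 3.83e-05). Ctr1B (-5.16), MtnD (-3.00) and ATP7 (-0.53) stayed lower with the library size alone. Exon bases shared with a gene on the opposite strand made up 22.0% in dare, 19.0% in Ctr1B, 18.6% in Pbgs, 16.4% in galla-1 and 10.6% in SdhB, and their part in these values was not tested.

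**Figure D4:**
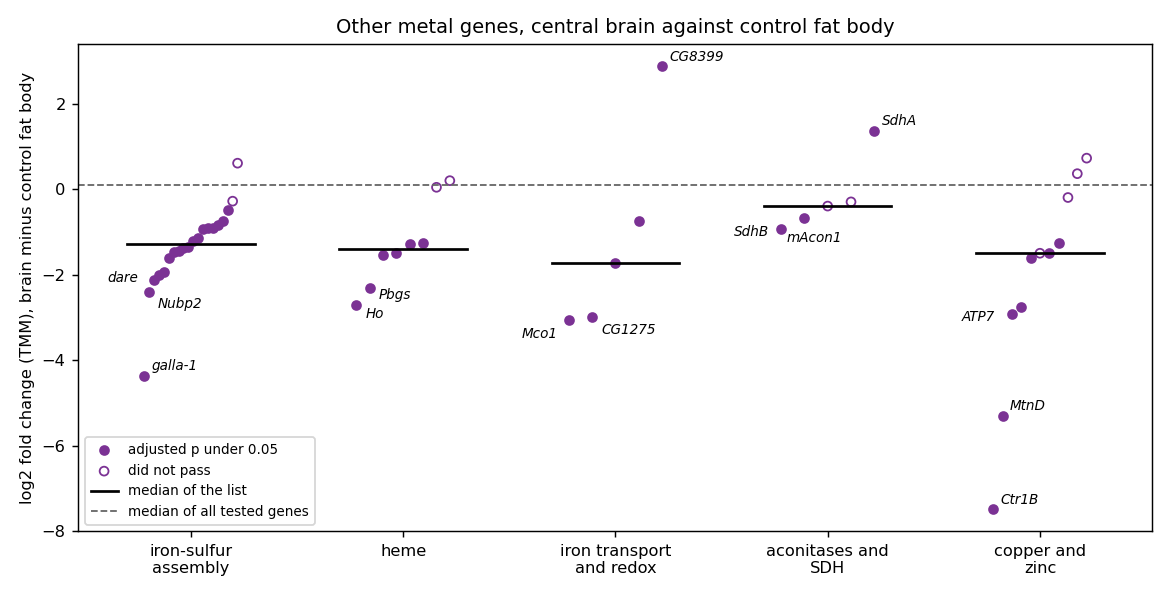
Log2 fold change, central brain minus control fat body with TMM scaling, of the tested members of 5 lists of metal genes. Filled points passed an adjusted p of 0.05, short lines are list medians and the dashed line is the median of all tested genes, 0.11. The points of the iron-sulfur, heme and copper and zinc lists that passed all lie below 0, while SdhA and CG8399 lie above it.

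The genes most like Fer1HCH over the 6 libraries were looked for among 4731 genes with a symbol and a mean of at least 10 CPM, by the root mean square distance between log2 CPM profiles centred on their own means. The 5 nearest were Nmda1 (distance 0.0608), Nubpl (0.0673), Yip1d1 (0.0675), SelG (0.0715) and RpL37-1 (0.0722). Nmda1, for example, averaged 42.9 CPM in brain, 160 CPM in 4-HT fat body and 148 CPM in control fat body. Fer2LCH, the partner subunit, was at rank 224 of the 4731, with a distance of 0.192. Nearest to Tsf1 were Chd64 (0.0312), Gbs-70E (0.105), Shmt (0.106), fus (0.118) and CG1544 (0.119). Chd64 averaged 11.5 CPM in brain, 503 CPM in 4-HT fat body and 550 CPM in control fat body.

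None of the 9 tested iron genes passed the threshold in 4-HT against control fat body. Over all genes 0 of 10029 (0%) were called by edgeR, with 596 at an unadjusted p under 0.05. DESeq2 called 44 of 10432 (0.422%), none of them an iron gene. None of the 9 had an unadjusted p under 0.05, and their adjusted p-values lay between 0.839 and 0.992. With TMM scaling, the libraries of 4-HT and control fat body did not overlap for 6 of the 9 genes and 30.0% of all genes. Of the 6, 3 were higher (Fer1HCH, Fer2LCH and IRP-1B) and 3 lower (Tsf3, Mvl and mfrn). With the library size alone, the libraries overlapped for Tsf3 and Mvl too.

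The intervals say what size of change remains possible. IRP-1B, at 798 ± 90.2 CPM in 4-HT fat body and 578 ± 102 CPM in control fat body (SD, n = 2 each), had the largest difference, a log2 fold change of 0.47 with a 95% interval of -0.04 to 0.97 (adjusted p = 0.839). Fer2LCH followed with 0.33 (-0.17 to 0.82) and Fer1HCH with 0.17 (-0.28 to 0.63). The remaining values were 0.15 for IRP-1A (-0.53 to 0.82), 0.09 for Tsf2 (-0.31 to 0.49), -0.14 for Tsf1 (-0.66 to 0.39), -0.16 for Tsf3 (-0.53 to 0.20), -0.17 for Mvl (-0.59 to 0.24) and -0.24 for mfrn (-0.59 to 0.12). IRP-1A varied most between the 4-HT replicates, at 278 and 162 CPM, on either side of the control libraries at 202 and 196 CPM. Without 4-HT replicate 1 the log2 fold change of IRP-1A was -0.29, and the signs of Tsf2 without 4-HT replicate 1 (-0.061) and of Tsf1 without 4-HT replicate 2 (0.025) turned as well. None of the 9 genes was called in any of the 12 alternative settings, control fat body replicate 1 left out included. A doubling, 1 on the log2 scale, lies outside all 9 intervals, though that of IRP-1B ends at 0.97. Each interval is for 1 gene with TMM scaling and takes its spread from all 3 groups, brain included. In the authors' deposited table all 10 genes had an adjusted p of 1 for this comparison.

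**Figure D5:**
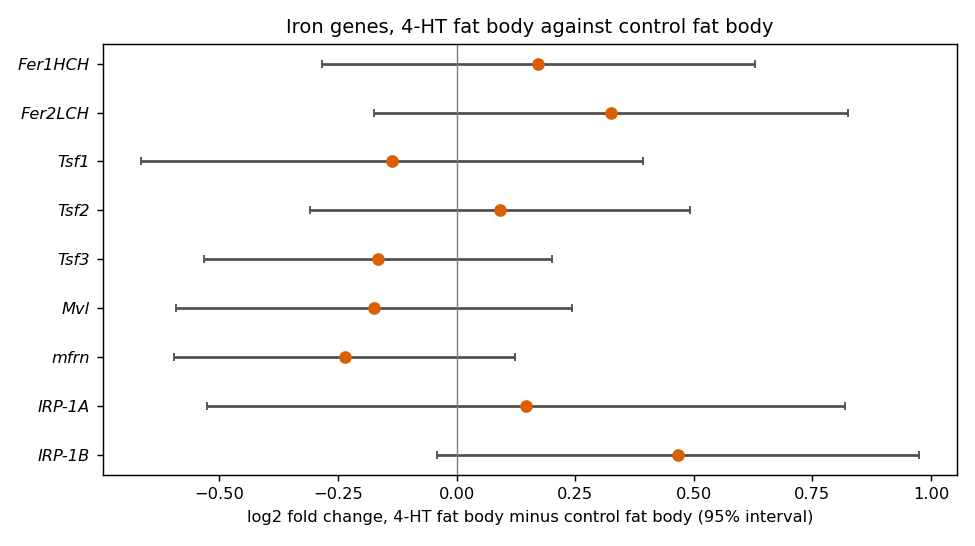
Log2 fold change of the 9 tested iron genes, 4-HT fat body minus control fat body, with 95% intervals from the edgeR fit over all 6 libraries. Every interval includes 0, and all lie between -0.66 and 0.97.

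In the lists of related genes, too, none was called after 4-HT, and list medians lay between 0.04 and 0.16 on the log2 scale, against 0.01 for all genes. The gene with the smallest p among iron-sulfur genes was Nfs1, a cysteine desulfurase, with 39.8 and 53.6 CPM in 4-HT fat body and 37.4 and 32.7 CPM in control fat body (log2 fold change 0.42, adjusted p = 0.845). Among heme genes it was Ho, with 58.9 and 59.8 CPM in 4-HT fat body and 36.5 and 35.5 CPM in control fat body (0.72, 95% interval 0.36 to 1.08, adjusted p = 0.699). Zip99C, which moves iron into the secretory pathway where ferritin is loaded, had 24.1 and 29.9 CPM in 4-HT fat body and 18.5 and 21.3 CPM in control fat body (0.44, adjusted p = 0.835). For SdhC the values were 24.9 and 30.4 CPM in 4-HT fat body and 26.1 and 21.7 CPM in control fat body (0.21, adjusted p = 0.953).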

How the data were processed

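The deposited counts are integers, 1 row for each FlyBase gene. The deposited comparison files hold, per the file headers, a signal (the mean, per group, of counts over DESeq size factors), its ratio or fold between groups, the log2 of that fold, and p-values computed by the authors. Per the submitters' processing notes, TopHat, HTSeq and DESeq were used with build dm3. Their versions, the HTSeq mode and the strand setting are not given in the sources. The kit, per the labels' protocols, does not mark strand.

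Counts were filtered with filterByExpr (10029 of 14869 genes kept), scaled by TMM and fitted with edgeR 4.0.16 (R 4.3.3), glmQLFit and glmQLFTest, robust, with all 6 libraries in 1 fit and no term but the group. A call needed an adjusted p (Benjamini-Hochberg) under 0.05. SE is the log2 fold change over the square root of its F statistic. Library totals ranged from 20687696 to 65802288. Alternatives were DESeq2 1.42.0, 3 other scalings, no filter, only the groups compared, a replicate block, leaving out each library, and leaving out replicate 1 of both brain and control fat body. The fit was also tested on simulated data in which most genes kept the same level in all groups. Those data do not hold the difference in composition between brain and fat body libraries, so they do not test the scaling. With 2 replicates a group, residual degrees of freedom are 3.

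Symbols came from reference tables of release 6 (13523 of 14869 identifiers), and coding and exon lengths from the Ensembl annotation of BDGP6. Since the build differs from dm3, no coordinates are printed. Coding length is that of the longest coding transcript, in place of a protein table. The 10 genes, the lists and the tests were chosen with earlier results of these data known. Of each list, up to 3 called genes with the largest absolute log2 fold change are named, or, with no call, the gene of smallest p; 1 gene that this rule names is not reported here. The 5 nearest profiles are named for Fer1HCH and Tsf1. Members with no match in the table are not analysed here, nor is one listed heme exporter whose identifier now carries another gene name.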

Additional observations from a re-analysis of the deposited data

How the results depend on the processing

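In brain against control fat body, 7018 genes were called, of which 9 were iron genes, all lower. The library size alone gave 4 iron genes higher and 4 lower, and leaving the 5 most abundant genes out of it gave 1 higher and 5 lower. With the library size alone the log2 fold changes turned to 0.70 for Fer1HCH, 1.15 for Fer2LCH, 1.03 for Tsf2 and 1.60 for mfrn, and with the 5 genes left out to 0.019 for Fer2LCH and 0.48 for mfrn. Both come from the scaling factor alone, which shifts every gene. The call count in the 5 lists was 39, and 25 with the 5 genes left out. Without replicate 1 of both groups, chosen after seeing the data, 5207 genes and 8 iron genes were called (not mfrn), and 28 in the lists. Of the recomputed iron values in brain, 98 kept direction and call, 6 turned and 4 lost the call. In 4-HT against control fat body edgeR called 0 genes, DESeq2 44, edgeR without the filter 2, and leaving out 1 library between 5 and 38; the cause was not tested. The list calls there were 0, and 0 to 1 with 1 library left out, the 1 being Alas (1.57, adjusted p = 0.0444) without 4-HT replicate 1. With 1 library left out, Tsf1 ranged from -0.31 to 0.025, Tsf2 from -0.061 to 0.24 and IRP-1A from -0.29 to 0.49, none called. Where an arm was left with 1 library, its spread is taken from the other groups. With the replicate number as a block, 6658 genes and 9 iron genes were called in brain, 38 in the lists, and 0 genes after 4-HT. Replicate differences correlated at 0.19 between brain and control, -0.14 between 4-HT and control and -0.09 between brain and 4-HT. The labels tie no numbers together, and with only the brain and control value above 0.1 the numbers were not taken as pairs, although replicate 1 of brain and of control fat body both held more salivary gland transcripts than replicate 2. Crossing the numbers, chosen after seeing the data, gave 0 calls after 4-HT. Depth limits Fer3HCH, Mco1, Ctr1B and MtnD.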

Other observations

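Alas and MtnA, from the heme list and the copper and zinc list, differed by more than 2-fold between the replicates of 4-HT fat body. So did 12.7% of genes. Alas, the aminolevulinate synthase that starts heme synthesis, had 37.2 and 95.1 CPM in 4-HT fat body and 32.4 and 32.1 CPM in control fat body, with a log2 fold change of 1.04 (adjusted p = 0.835, edgeR's quasi-likelihood test). MtnA, a metallothionein, had 17.2 and 142 CPM in 4-HT fat body and 20.1 and 9.94 CPM in control fat body (2.42, adjusted p = 0.835). In both genes replicate 2 of 4-HT fat body was the highest of the 4 fat body libraries. The same library held the highest Fer1HCH, Fer2LCH and IRP-1B and the lowest IRP-1A, Tsf1 and mfrn of the 4. Tsf2 was lowest there with TMM scaling, by 36.3 against 37.7 CPM in control fat body replicate 2, but not with the library size alone. Tsf3 and Mvl were neither highest nor lowest in it. The share of all genes for which this library was highest or lowest was not computed, so whether the iron genes stand out is not known.

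Some genes listed as markers of the nervous system were abundant in fat body. Syt1, the synaptotagmin of synaptic vesicles, had 80.5 and 109 CPM in brain, 687 and 607 CPM in 4-HT fat body, and 549 and 608 CPM in control fat body. The glial glutamate transporter gene Eaat1 had 85.9 and 74.4 CPM in brain, 285 and 372 CPM in 4-HT fat body, and 248 and 362 CPM in control fat body. Of the 8 glial markers, repo, alrm, wrapper and Mdr65 stood at 33.8 CPM or more in brain and at 0.462 CPM or less in all fat body libraries. Gs2 had 106 and 66.2 CPM in brain and 109.9 to 217 CPM in fat body, moody 20.3 and 17.8 CPM in brain and 20.5 to 23.1 CPM in fat body, and nrv2 101 and 79.9 CPM in brain and 24.1 to 29.7 CPM in fat body. Summed, the 8 had 523 and 423 CPM in brain, 549 and 637 CPM in 4-HT fat body, and 429 and 522 CPM in control fat body, so brain and control fat body overlapped.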
